A study of Homo sapiens with 72 samples.

Results

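Standalone lncRNA promoters are start sites of long noncoding RNA genes that lie apart from the start of any protein-coding gene. A member was a GENCODE lncRNA gene with an annotated start more than 5 kb from every protein-coding start and an H3K4me3 peak within 1 kb of that start in at least 3 of the 18 H3K4me3 libraries. Of 18866 lncRNA genes, 13102 had such a start and 831 also met the peak rule. The members were thus selected on H3K4me3 peak calls, and the presence of H3K4me3 at them is given below as a description with no test. The same peak rule gave 11801 protein-coding promoters of 20033 genes and 2934 lncRNA promoters within 5 kb of a protein-coding start, which are used for comparison.

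The marks were profiled by Cut&Tag, in which an antibody to a histone mark directs a transposase to the surrounding DNA. Raji is a Burkitt lymphoma line, and NALM6 and REH are lines of precursor B acute lymphoblastic leukemia. Each line was left untreated or given 1 nM bryostatin overnight per the labels (a full day in the study's text), and H3K4me2, H3K4me3 and H3K27me3 were each profiled in 3 replicates of each group, which makes 54 libraries. All cells were grown in RPMI medium with fetal bovine serum and none carried a further modification according to the labels. Each line is a single established line, and the labels do not state that replicates came from separate cultures, so p-values measure the spread between these samples. Bryostatin is a macrolide that binds protein kinase C.

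As background, H3K4me3 marks active and poised promoters, H3K4me2 marks promoters together with enhancers, and H3K27me3 is the mark of Polycomb repression. Many lncRNA promoters stand in divergent pairs with coding genes, so that a histone mark there cannot be assigned to either gene. At a promoter that stands alone the mark is read without such a neighbour, although some of these starts lie in enhancers. Several such transcripts are precursors of small RNAs. MIR155HG and MIR17HG carry microRNAs known from B cell activation and lymphoma, and the SNHG genes carry snoRNAs in their introns.

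Promoter windows are shown for 9 members whose marks differed between lines or with bryostatin, or that stand for the broadly marked members. They run from 250 bases before to 50 bases after the RefSeq start on GRCh38.p14 and are written 5′ to 3′ in the direction of transcription. Capitals mark matches on either strand to AP-1 (TGANTCA), the CCAAT box, the GC box (GGGCGG) or the TATA box (TATAAA). MIR155HG (chr21:25561895-25562194, plus strand), CYTOR (chr2:87455177-87455476, plus strand) and MIR4435-2HG (chr2:111495112-111495411, minus strand) had H3K4me3 in 6 of 6 Raji libraries. MIR130AHG (chr11:57638126-57638425, plus strand), RENO1 (chr17:81345946-81346245, minus strand) and LINC03010 (chr7:155381826-155382125, plus strand) had H3K4me3 in REH only. MIR23AHG (chr19:13842869-13843168, minus strand) was graded between the lines. LINC01237 (chr2:241881113-241881412, plus strand) fell with bryostatin in REH, and MALAT1 (chr11:65497488-65497787, plus strand) was marked in every line.
MIR155HG: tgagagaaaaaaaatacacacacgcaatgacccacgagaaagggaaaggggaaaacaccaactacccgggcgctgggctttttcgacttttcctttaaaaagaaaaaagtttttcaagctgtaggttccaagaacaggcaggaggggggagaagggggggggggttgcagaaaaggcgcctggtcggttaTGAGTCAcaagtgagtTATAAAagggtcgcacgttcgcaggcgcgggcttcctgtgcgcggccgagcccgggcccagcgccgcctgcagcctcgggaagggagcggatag
CYTOR: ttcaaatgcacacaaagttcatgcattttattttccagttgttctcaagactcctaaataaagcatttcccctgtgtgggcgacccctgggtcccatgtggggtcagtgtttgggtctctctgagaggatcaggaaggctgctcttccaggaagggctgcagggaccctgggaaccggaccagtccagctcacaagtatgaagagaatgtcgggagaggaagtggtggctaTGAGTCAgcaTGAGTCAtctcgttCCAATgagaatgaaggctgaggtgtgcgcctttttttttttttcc
MIR4435-2HG: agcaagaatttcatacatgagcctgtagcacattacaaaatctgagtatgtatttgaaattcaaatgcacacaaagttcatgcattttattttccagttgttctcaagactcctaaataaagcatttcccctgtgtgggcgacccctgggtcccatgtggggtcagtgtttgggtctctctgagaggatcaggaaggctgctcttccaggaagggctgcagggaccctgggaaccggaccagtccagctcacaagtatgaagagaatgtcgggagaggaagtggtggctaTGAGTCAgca
MIR130AHG: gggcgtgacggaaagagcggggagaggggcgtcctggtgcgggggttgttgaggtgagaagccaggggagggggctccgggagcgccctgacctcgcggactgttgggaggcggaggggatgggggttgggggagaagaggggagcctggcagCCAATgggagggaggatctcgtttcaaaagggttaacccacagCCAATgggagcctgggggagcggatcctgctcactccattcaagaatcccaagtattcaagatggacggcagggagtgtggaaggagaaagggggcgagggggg
RENO1: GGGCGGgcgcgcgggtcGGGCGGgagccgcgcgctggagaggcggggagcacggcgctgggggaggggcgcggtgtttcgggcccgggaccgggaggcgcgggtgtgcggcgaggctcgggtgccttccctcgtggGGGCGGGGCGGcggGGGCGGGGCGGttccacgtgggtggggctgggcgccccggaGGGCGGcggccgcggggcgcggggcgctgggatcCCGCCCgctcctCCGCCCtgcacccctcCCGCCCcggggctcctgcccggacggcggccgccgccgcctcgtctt
LINC03010: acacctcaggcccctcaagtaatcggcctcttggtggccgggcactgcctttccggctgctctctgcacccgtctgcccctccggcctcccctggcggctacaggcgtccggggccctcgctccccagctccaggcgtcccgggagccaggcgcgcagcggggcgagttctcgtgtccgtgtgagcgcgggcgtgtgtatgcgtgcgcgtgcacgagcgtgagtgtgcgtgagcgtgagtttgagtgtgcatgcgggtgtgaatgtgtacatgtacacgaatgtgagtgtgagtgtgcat
MIR23AHG: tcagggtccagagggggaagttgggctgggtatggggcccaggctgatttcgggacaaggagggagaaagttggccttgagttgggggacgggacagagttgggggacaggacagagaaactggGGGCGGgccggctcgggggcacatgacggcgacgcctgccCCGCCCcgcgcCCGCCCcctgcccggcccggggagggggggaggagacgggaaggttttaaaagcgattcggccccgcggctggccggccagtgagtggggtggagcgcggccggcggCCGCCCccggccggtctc
LINC01237: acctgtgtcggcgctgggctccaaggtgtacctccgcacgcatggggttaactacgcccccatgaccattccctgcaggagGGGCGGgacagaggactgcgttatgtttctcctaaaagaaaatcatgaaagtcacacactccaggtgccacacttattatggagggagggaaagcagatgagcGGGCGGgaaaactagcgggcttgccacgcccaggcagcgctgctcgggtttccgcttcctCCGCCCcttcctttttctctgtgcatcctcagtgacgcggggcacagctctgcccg
MALAT1: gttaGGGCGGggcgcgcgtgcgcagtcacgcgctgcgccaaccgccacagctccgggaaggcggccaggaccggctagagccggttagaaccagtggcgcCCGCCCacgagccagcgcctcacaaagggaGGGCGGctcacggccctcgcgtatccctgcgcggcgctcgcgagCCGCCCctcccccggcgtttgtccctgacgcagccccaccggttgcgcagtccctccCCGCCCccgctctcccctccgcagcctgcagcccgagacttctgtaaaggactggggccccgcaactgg

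The window of RENO1 was 84.7% G and C and held 10 GC boxes, the most of these 9. MALAT1 held 5 GC boxes, MIR23AHG 4 and LINC01237 3. The windows of MIR155HG and MIR4435-2HG each held 1 AP-1 match and that of CYTOR held 2, whereas LINC03010 held none of the motifs searched. CYTOR and MIR4435-2HG are near-identical copies on chromosome 2, and their windows agreed at all 241 aligned bases. Reads from the 2 copies may therefore be shared between them, and their values are uncertain as separate measurements. The MIR4435-2HG window ends before the place of the second CYTOR match, so their AP-1 counts show no difference between the copies.

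The mature microRNAs of 4 members follow, with the seed (bases 2 to 8) in capitals, because H3K4me3 was called in some lines only at 3 of their host genes and because MIR17HG shares a seed with 1 of them. MIR155HG gives miR-155, MIR17HG gives the miR-17 cluster and MIR130AHG gives miR-130a. ENSG00000283638 on chromosome X carries the related miR-106a cluster and was chosen for display after its values were seen.
hsa-miR-155-5p: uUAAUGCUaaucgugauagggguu
hsa-miR-17-5p: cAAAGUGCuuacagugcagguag
hsa-miR-106a-5p: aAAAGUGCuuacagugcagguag
hsa-miR-130a-5p: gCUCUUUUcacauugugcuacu
The seed AAAGUGC is shared by miR-17-5p and miR-106a-5p and was held by no other member's microRNAs. MIR17HG had an H3K4me3 peak in all 18 libraries. ENSG00000283638 had one in 5 of 6 REH libraries and in 0 of 6 of both other lines, with H3K4me2 in 6 of 6 REH libraries and in none of the others. In all, 44 members held an annotated microRNA hairpin on their own strand.

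Depth was 5.12 to 47.9 M mapped reads (M, 1e6) with a median of 18.8 M over the 48 libraries in which it could be read from the values. Replicate 1 of NALM6 in both groups and all marks, 6 libraries, carries another unstated scaling and shorter peaks, so NALM6 shares and counts that turn on it are also given without it. Untreated replicate 2 of H3K27me3 in Raji covered 51.0% of members and 80.9% of coding promoters, whereas the other 5 Raji libraries covered 0.963% to 19.3% of members. The B lineage genes CD79B, PAX5 and EBF1 had H3K4me3 in 6 of 6 libraries of every line, and CD79A in 6, 3 and 6 of Raji, NALM6 and REH. Of the precursor B genes, RAG1 had it throughout, whereas RAG2, DNTT, VPREB1 and IGLL1 had it in no Raji library, and VPREB1 also in no REH library. CD3D, CD3E, CD14, LYZ and EPCAM, markers of T, myeloid and epithelial cells, had none in any library.

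The members were mostly genes with no name of their own. An identifier alone was given for 445, 155 were LINC genes, 51 antisense genes, 22 microRNA hosts, 14 snoRNA hosts and 144 had another symbol. Of the 831 starts, 764 were intergenic, 47 lay inside a protein-coding gene on the opposite strand and 20 on the same strand. The median distance to the nearest coding start was 32776 bp. Members can overlap, since 273 had the start of another member within 1 kb, and members that share a merged region share its value.

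H3K4me3 was called at fewer libraries per promoter among the members than among coding promoters. The median was 10 of 18 libraries for members, 17 for coding promoters and 16 for lncRNA promoters near a coding start. Only 39 members, or 4.69%, had a peak in all 18, against 36.8% of coding promoters and 35.8% of the near lncRNA promoters. At the threshold, 75 members were called in exactly 3 libraries and 72 further starts in exactly 2, just outside the rule. The largest single class was 6 libraries, with 112 members, which is the number of libraries of a single line. All 3 sets passed the same rule, and these counts carry no test.

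By line, H3K4me3 was found in 6 of 6 libraries at 472 members in Raji, 43 in NALM6 and 322 in REH, and in 0 of 6 at 123, 253 and 189. With presence taken as a peak in at least 3 of 6 libraries, 339 members were marked in all lines, 217 in Raji alone, 60 in REH alone and 48 in NALM6 alone. A further 78 were marked in Raji and NALM6, 33 in NALM6 and REH, 31 in Raji and REH and 25 in no line. The low NALM6 counts at 6 of 6 rest on replicate 1 and on the shallow bryostatin replicate 3, which had 4389 H3K4me3 peaks at 5.41 M reads. A missing peak in these libraries is therefore not read as absence of the mark.

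H3K4me2, which the rule did not use, was less often found at members than at coding promoters in each line. The mean share with a peak was 77.6% ± 9.42 of members and 86.5% of coding promoters in Raji (SD over 6 libraries, both treatments). In NALM6 the shares were 46.4% ± 22.6 and 67.3%, and in REH 74.6% ± 6.07 and 88.1%. The differences of -8.97, -20.9 and -13.6 percentage points were negative in 6 of 6 libraries of each line, with p = 0.03125 in an exact two-sided sign-flip test over 6 libraries, the smallest it can give, and 0.0469 after adjustment over 6 comparisons. With same-numbered treated and untreated libraries averaged to 3 values in each line, the exact p was 0.25, the smallest that 3 values allow, so the call rests on counting all 6 libraries as separate. The sets also differ in H3K4me3, with a median of 10 of 18 libraries for members and 17 for coding promoters. The test over all promoters does not separate H3K4me2 from that difference. Among promoters with H3K4me3 in all 6 libraries of the line, the REH difference turned to 1.30 points higher at members (exact sign-flip p = 0.03125), and the NALM6 difference was -4.52 (p = 0.219 by the same exact test). In Raji it was -0.908 and stayed negative. Without NALM6 replicate 1 the NALM6 difference was -17.9 over 4 libraries, where the smallest exact p is 0.125.

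H3K27me3 was found at few members. The mean share was 15.3% ± 19.4 in Raji, 9.29% ± 8.95 in NALM6 and 5.84% ± 1.69 in REH (SD over 6 libraries), against 18.3%, 6.61% and 4.54% of coding promoters. In REH members exceeded coding promoters in 6 of 6 libraries, by 1.29 points (exact two-sided sign-flip p = 0.03125, adjusted 0.0469, or 0.25 with same-numbered libraries averaged), and by 0.782 with equal numbers of peaks. In NALM6 the difference was 2.67 points (exact p = 0.125, adjusted 0.15), with 4.2 without replicate 1 (exact p = 0.125, the smallest 4 libraries allow) and 0.312 with equal numbers of peaks, and in Raji -2.98 (exact p = 1.0). The Raji difference was set by untreated replicate 2, without which it was 2.41 points higher at members, with an exact p of 0.0625 that is the smallest 5 libraries allow.

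**Figure D1:**
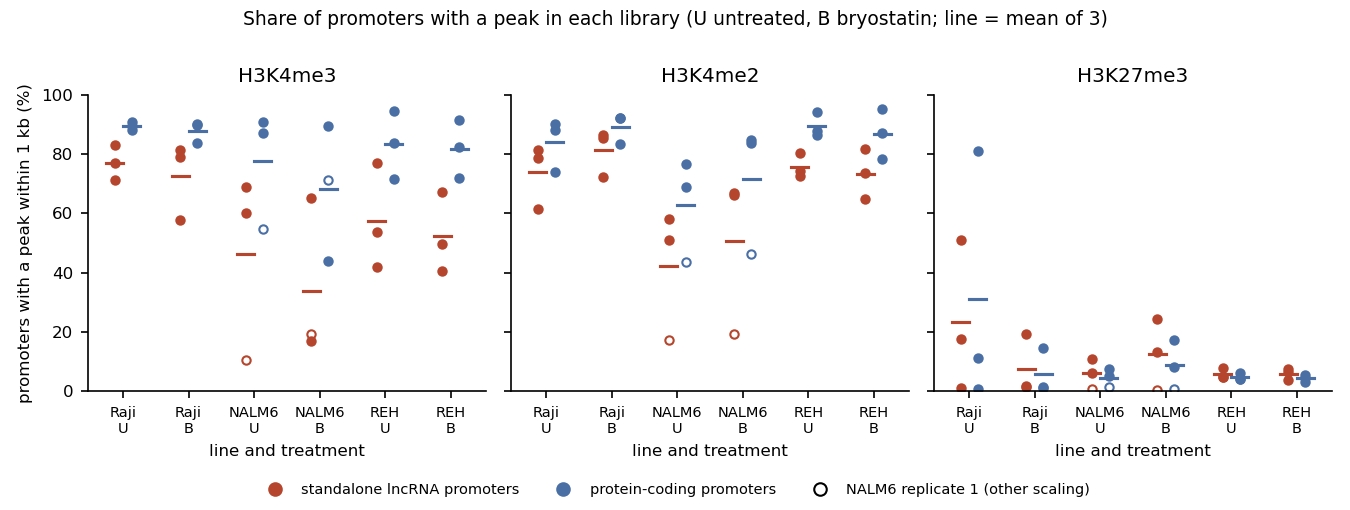
Each point is a library, and the y axis gives the percentage of standalone lncRNA promoters (red) or coding promoters (blue) with a peak within 1 kb, by mark and by line and treatment (U untreated, B bryostatin, short lines the mean of 3 libraries, open points NALM6 replicate 1). For H3K4me2 the members lie below coding promoters in all 18 libraries, and 1 Raji H3K27me3 library stands apart at 51.0% of members.

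Members with H3K4me3 in 6 of 6 libraries of a line and in 0 of 12 of the other lines numbered 52 in Raji, 22 in REH and 0 in NALM6. With NALM6 limited to 3 of its 6 libraries, 22 members were called in those 3 and in none of the other lines, led by ENSG00000272694 at a mean level of 0.535. Of the 52 Raji members, 23 had an identifier only, 9 were LINC genes, 4 antisense genes, 1 a microRNA host and 15 had another symbol. Of the 22 REH members, 11 were LINC genes, 8 had an identifier only, 1 was a microRNA host and 2 had another symbol. The marks that the rule did not use were described at the same members. H3K4me2 was present in 6 of 6 libraries of the line at 32 of 52 Raji members and 20 of 22 REH members. Of all 831 members, 500 had it in 6 of 6 libraries in Raji, a share near that of the Raji-restricted ones, and 530 in REH. It was in 0 of 12 libraries of the other lines at 38 of the 52 and 14 of the 22. Over all members it was in 0 of 6 libraries at 108 in Raji, 260 in NALM6 and 146 in REH. H3K27me3 was present in at least 1 of the 12 libraries of the other lines at 18 of the 52 Raji members. The REH members had it there at 17 of 22, but those libraries include Raji untreated replicate 2, which covered 51.0% of all members. Within the line itself, H3K27me3 was called in at least 1 of 6 libraries at 25 of the 52 and 2 of the 22. Of all 831 members, 358 lacked an H3K27me3 peak in every Raji library, while 614 lacked one throughout NALM6 and 752 throughout REH. No test was run on these counts.

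A level is the signal of a merged region divided by the median region called in every library of that line and mark, so that 1 is the median region of the library. ENSG00000289536 (chr14, start 105866216), 538 bp from the immunoglobulin heavy chain joining segment IGHJ1P, had the highest H3K4me3 level of the Raji-restricted members. Its untreated levels were 9.61, 6.33 and 7.05 and its bryostatin levels 7.29, 6.16 and 6.57. H3K4me2 was present in both lines, and in the region merged over Raji and REH (chr14:105855441-105865460) its untreated level was 4.35, 5.01 and 4.27 in Raji and 12.5, 15.9 and 18.2 in REH, a log2 difference of -1.76 (SE 0.13, adjusted p = 2.704e-07, limma). The H3K4me2 levels of REH were thus all above those of Raji at a locus where H3K4me3 near the start was called in Raji only.

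LINC00926, a noncoding gene of B cells 17910 bp from the nearest coding start, that of TCF12, had H3K4me3 levels of 1.05, 1.65 and 1.26 in untreated and 1.29, 1.48 and 1.38 in bryostatin-treated Raji, and no peak of either H3K4 mark in NALM6 or REH. NAPSB, a pseudogene of the napsin protease family, had H3K4me3 at 0.735 to 1.26. ENSG00000289556 had H3K4me3 at 1.21 to 1.74 in Raji, with H3K4me2 at 0.735 to 0.834 in REH and H3K27me3 in 6 of 6 REH libraries. CYTOR, a cytoplasmic lncRNA linked to the cytoskeleton, had H3K4me3 levels of 0.527, 0.583 and 0.533 in untreated and 0.930, 0.706 and 0.595 in treated Raji. In NALM6, CYTOR had no H3K4 mark but H3K27me3 within 1 kb of the start in 3 of 6 libraries. MIR4435-2HG, its near copy, had H3K4me3 at 0.443 to 0.797 in Raji and the same H3K27me3 count in NALM6.

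Several Raji-restricted members stood at antigen receptor loci, a list made after their values were seen. Of the 6 members within 10 kb of an immunoglobulin or T cell receptor segment, 5 had H3K4me3 in 6 of 6 Raji libraries and in none of NALM6 or REH. These were ENSG00000289536, COPDA1 at 4267 bp from IGHG2, PRAMENP inside IGLV10-67, TRG-AS1 inside TRGV5 and ENSG00000290099 at 675 bp from TRBJ2-7. The sixth, ENSG00000288861 at 278 bp from IGLV2-14, was called only in NALM6, in 3 of 6 libraries. T cell markers were at 0 in all lines, as given above, and the T cell receptor members carried H3K4me3 in Raji without H3K4me3 at CD3D or CD3E.

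In REH the highest restricted members were BLACE and LINC03010, which share a merged region on chromosome 7 between INSIG1 and EN2. BLACE is named for its expression in B cell acute lymphoblastic leukemia. Its H3K4me3 levels were 8.59, 9.19 and 10.5 in untreated and 6.25, 7.11 and 7.02 in treated REH, and H3K4me2 reached 17.8 to 23. LINC03010 carried H3K27me3 instead of the H3K4 marks in the other lines, in 5 of 6 libraries of NALM6 (0.341 to 1.92) and 5 of 6 of Raji (0.910 to 1.65). The marks of LINC03010 thus differed in kind between REH and the other lines.

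ENSG00000228401, 9724 bp from the start of EGFL7, had H3K4me3 at 2.71 to 4.98 in REH and H3K4me2 at 18.2 to 25.3 in REH and 3.42 to 6.67 in NALM6. LINC00689 had H3K4me3 at 2.36 to 3.30. RENO1, a regulator of neurogenesis, had levels of 2.54, 2.67 and 2.73 in untreated and 2.32, 2.74 and 2.61 in treated REH, with H3K27me3 in 4 of 6 NALM6 and 3 of 6 Raji libraries. MIR130AHG, host of miR-130a, had H3K4me3 at 1.38, 1.39 and 1.51 in untreated and 1.46, 1.45 and 1.46 in treated REH. MIR130AHG had H3K27me3 in 3 of 6 NALM6 and 2 of 6 Raji libraries and no H3K4 mark there.

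The listed members comprise widely studied lncRNAs, lncRNAs of B and immune cells, microRNA hosts and snoRNA hosts, 52 in all. Of 23 widely studied lncRNAs 13 were members, and H3K4me3 was in 6 of 6 libraries at 11 of these in Raji, 2 in NALM6 and 8 in REH. Of 20 B lineage and immune lncRNAs 5 were members, with 4, 0 and 0 in 6 of 6. Of 83 microRNA hosts 22 were members, with 14, 6 and 13. Of 28 snoRNA hosts 14 were members, with 14, 3 and 12. For comparison, 472, 43 and 322 of all 831 members had it in 6 of 6.

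**Figure D2:**
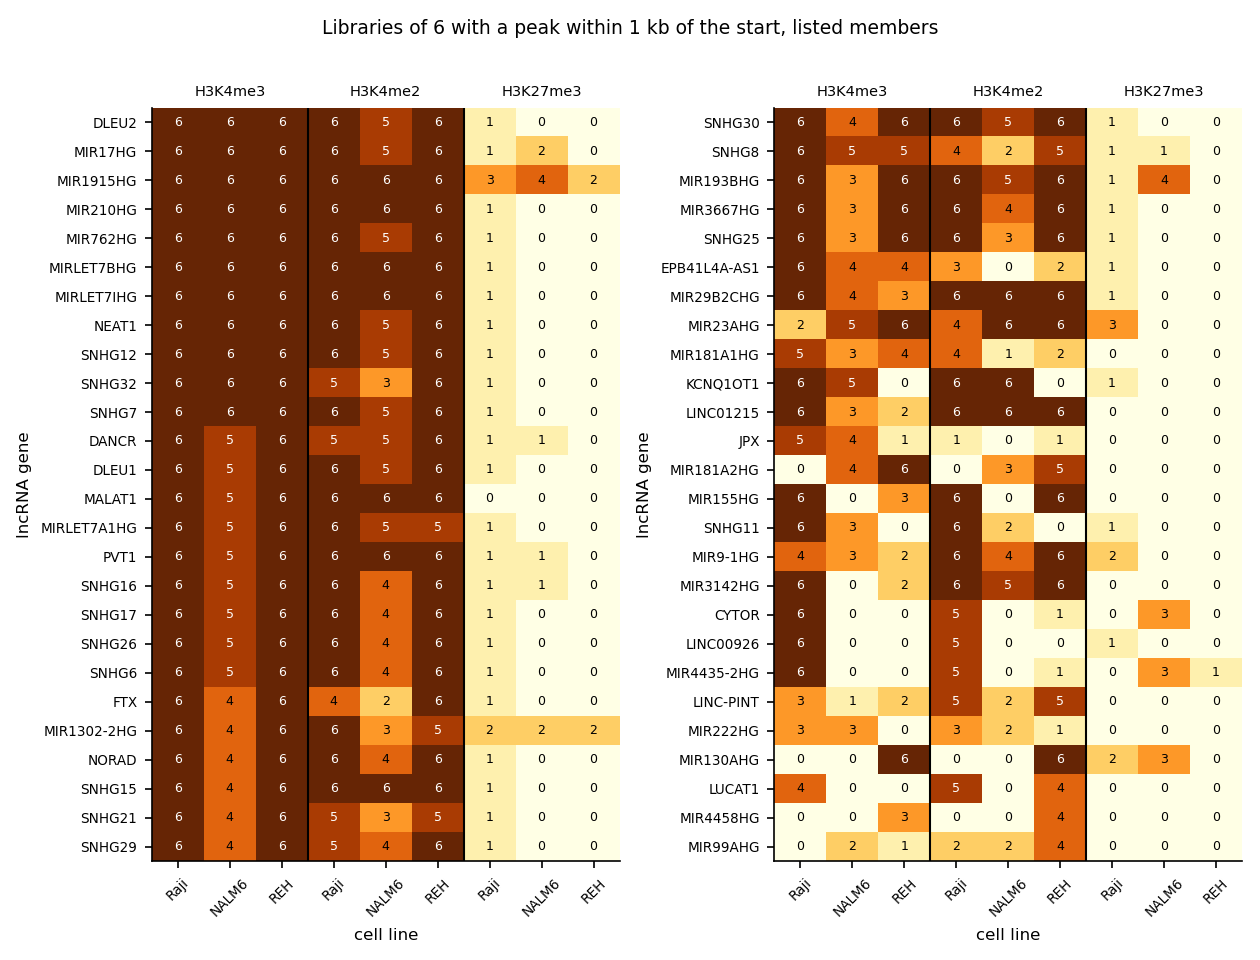
Cells give the number of the 6 libraries of each line (x axis) with a peak within 1 kb of the start for the 52 listed members (y axis), for H3K4me3, H3K4me2 and H3K27me3. DLEU2 to SNHG7 at the top have H3K4me3 in all 18 libraries, while CYTOR and LINC00926 have it in Raji only and MIR130AHG in REH only.

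H3K4me3 was in all 18 libraries at 11 listed members, namely DLEU2, MIR17HG, MIR1915HG, MIR210HG, MIR762HG, MIRLET7BHG, MIRLET7IHG, NEAT1, SNHG12, SNHG32 and SNHG7. NEAT1, the scaffold of nuclear paraspeckles, had H3K4me3 at 3.50 to 4.39 in Raji, 2.19 to 2.76 in REH and 0.235 to 1.22 in NALM6. MALAT1, an abundant RNA of nuclear speckles, had it in 17 of 18 libraries, at 1.09 to 1.66 in Raji, 1.15 to 1.37 in REH and 0.274 to 0.934 in 5 NALM6 libraries. MIR17HG reached 5.55 and 4.26 in NALM6 replicate 1 but 1.24 to 1.86 in the other 4 NALM6 libraries, beside 2.16 to 3.42 in Raji and 1.62 to 1.98 in REH. Its NALM6 range is thus set by the libraries with another scaling.

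Other listed members were restricted to some lines. KCNQ1OT1, the imprinted antisense transcript of KCNQ1, had H3K4me3 at 1.38 to 1.79 in Raji and at 0.172 to 0.533 in 5 of 6 NALM6 libraries, and neither H3K4 mark in REH. MIR181A2HG, host of miR-181a, was called in 0 of 6 Raji, 4 of 6 NALM6 and 6 of 6 REH libraries, at 0.463 to 0.635 in REH. SNHG11 was called in 6 of 6 Raji libraries at 0.362 to 0.805 and in 0 of 6 of REH.

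MIR23AHG, host of miR-23a, miR-24 and miR-27a, was graded across the lines in both H3K4 marks. Its H3K4me2 levels were 5.70 to 6.93 in REH, 3.12 to 3.89 in NALM6 and 0.262 to 1.07 in 5 Raji libraries, and no range overlapped another. Its H3K4me3 levels were 1.28, 1.11 and 0.918 in untreated and 1.29, 1.78 and 1.82 in treated REH, 0.335 to 0.405 in 5 NALM6 libraries and 0.107 and 0.143 in 2 Raji libraries, both treated. Levels set across lines are relative to each line's own median region.

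MIR155HG, host of the B cell oncogenic miR-155, had both H3K4 marks in Raji, H3K4me2 with little H3K4me3 in REH and neither in NALM6. Its H3K4me3 levels in Raji were 1.40, 1.23 and 0.746 in untreated and 1.97, 1.67 and 0.993 in treated libraries, and the groups overlapped. In REH 3 of 6 libraries had H3K4me3, at 0.156 to 0.349, while H3K4me2 was at 0.916 to 0.979 in all 6. MIR3142HG, host of miR-146a, had H3K4me3 in 6 of 6 Raji libraries at 0.595 to 1.07 and in 2 of 6 REH libraries, and in none of NALM6.

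For Raji against REH the untreated libraries of each mark were compared in regions merged over both lines, so levels there have another reference and are not comparable with those of a single line above. At LINC01410, for example, H3K4me3 in untreated Raji had a mean of 8.92 among the regions of Raji and 7.15 in the merged regions. NALM6 was left out of this test because of its replicate 1. For H3K4me2, 195 of 333 member regions tested passed an adjusted p of 0.05 in limma, 98 higher in Raji (23.8% of all regions) and 97 higher in REH (23.0%), beside 46.8% of all regions in either direction. For H3K4me3 it was 139 of 210, 63 higher in Raji (23.8% of all regions) and 76 higher in REH (27.5%), beside 51.3% in either direction. The libraries did not overlap at 227 of 333 member regions for H3K4me2 (56.0% of all regions) and at 148 of 210 for H3K4me3 (60.8% of all). Only regions called in every library enter these tests. A line-restricted member therefore enters only where its merged region was called in both lines, as that of RENO1 was for H3K4me2. The merged region itself extended to a coding start at 12 of the 333 H3K4me2 and 9 of the 210 H3K4me3 member regions, those of TSPOAP1-AS1 and SNHG15 for both marks, and the signal there is shared with that start. The direction depends on centring, since without it the split was 29 and 106 for H3K4me2 and 15 and 43 for H3K4me3, when the median of all regions stood at -0.25 and -0.20 on the log2 scale. Over all 7999 regions the H3K4me2 split without centring was 696 and 2129.

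**Figure D3:**
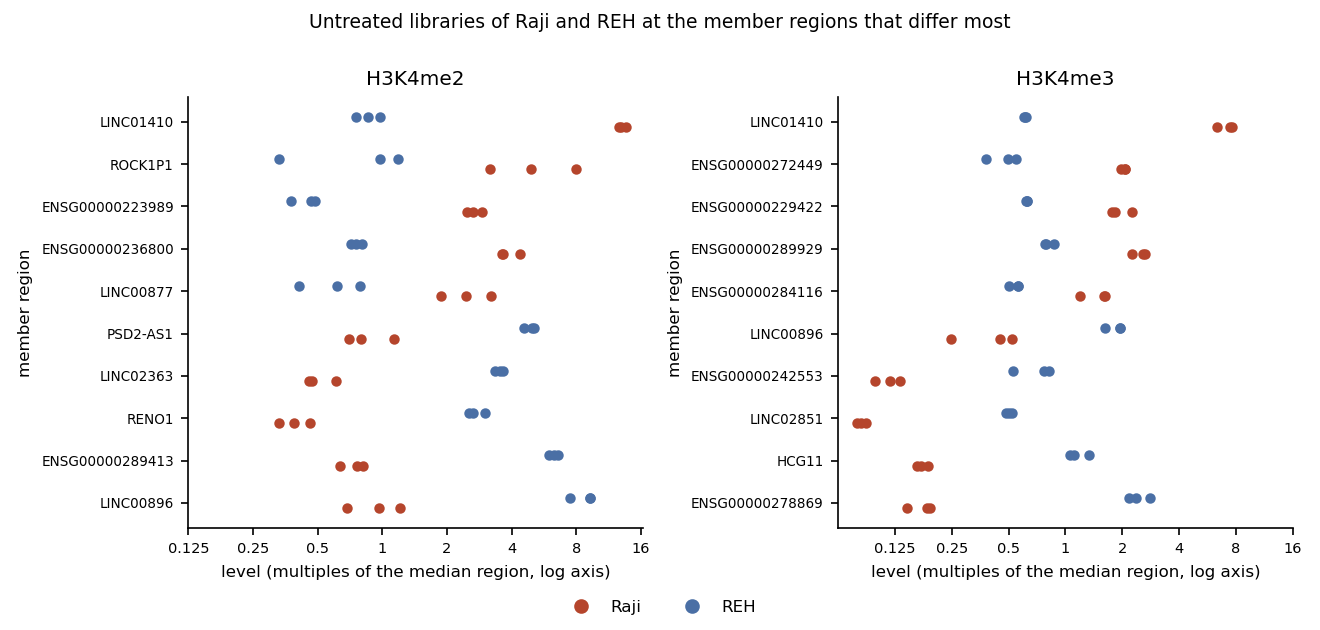
Each point is an untreated library of Raji (red) or REH (blue), with the level of H3K4me2 (left) and H3K4me3 (right) in multiples of the median region on a log2-spaced x axis, for the 5 member regions of largest difference in each direction (y axis, 1 member named per region). The libraries of the lines do not overlap at any region shown, and LINC01410 is higher in Raji for both marks.

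The largest difference was at LINC01410, on the pericentromere of chromosome 9 (chr9:62798831-62805240), in a region shared with ENSG00000287168 and ENSG00000288838. H3K4me2 was 13.0, 12.7 and 13.6 in Raji and 0.751, 0.859 and 0.976 in REH, a log2 difference of 3.93 (SE 0.12, adjusted p = 2.503e-10, limma). H3K4me3 of LINC01410 was 6.36, 7.62 and 7.47 in Raji and 0.609, 0.618 and 0.605 in REH (log2 3.55, adjusted p = 1.889e-08, limma). This part of chromosome 9 holds near-identical copies, as do SDHAP1 and ROCK1P1, which are copies of coding genes, and reads there may be split between copies. ROCK1P1 (chr18:105411-112710) had H3K4me2 at 3.18, 4.94 and 7.96 in Raji and 1.19, 0.97 and 0.330 in REH (log2 2.79, adjusted p = 7.154e-05, limma).

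In the other direction, LINC00896 and LINC02891 (chr22:20199531-20208450) had H3K4me2 at 0.683, 1.21 and 0.965 in Raji and 7.46, 9.30 and 9.27 in REH (log2 -3.22, SE 0.17, adjusted p = 1.194e-08, limma). RENO1 (chr17:81342131-81347510) had H3K4me2 at 0.388, 0.460 and 0.330 in Raji and 2.52, 3.03 and 2.66 in REH (log2 -2.81, SE 0.15, adjusted p = 9.414e-09, limma). ENSG00000278869 (chr22:49932651-49938100), between CRELD2 and PIM3, had H3K4me3 at 0.144, 0.193 and 0.185 in Raji and 2.18, 2.35 and 2.82 in REH (log2 -3.82, SE 0.15, adjusted p = 1.517e-07, limma). HCG11 on chromosome 6 had H3K4me3 at 0.187, 0.164 and 0.172 in Raji and 1.11, 1.06 and 1.33 in REH (log2 -2.74). At each of these the lines were fully separated. LINC02363 was lower in Raji by total signal for H3K4me2 (log2 -2.79) but not by mean signal per base (0.13).

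Among snoRNA hosts 5 of 13 tested were higher in Raji and 3 higher in REH for H3K4me3, where 23.8% and 27.5% of all regions passed in these directions. SNHG12 had 1.97, 1.88 and 1.89 in Raji and 0.978, 0.974 and 0.912 in REH (log2 1.00, adjusted p = 5.051e-06, limma), and SNHG15 (log2 1.12), SNHG17 (0.82), SNHG6 (0.77) and SNHG26 (0.73) were also higher in Raji. SNHG7 (-0.48), SNHG25 (-0.49) and SNHG29 (-0.33) were higher in REH. Of 10 microRNA hosts tested for H3K4me3, 2 were higher in Raji, MIR193BHG (1.41) and MIR210HG (0.64), and 5 higher in REH, led by MIRLET7BHG at 5.43, 5.66 and 6.30 in REH and 1.27, 1.56 and 1.59 in Raji (log2 -1.98, adjusted p = 7.255e-07, limma). MIRLET7BHG holds let-7a and let-7b. MIR1915HG (-1.37) and MIRLET7IHG (-0.64) moved the same way.

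Of 8 widely studied members tested for H3K4me3, NORAD, a decoy of Pumilio proteins, was higher in Raji (log2 0.37) and 4 were higher in REH, among them DANCR (-0.91), DLEU2 (-0.44) and MALAT1 (-0.37). NEAT1 differed by 0.15 (adjusted p = 0.185, limma) and did not pass. For H3K4me2, 1 of 7 widely studied members was higher in Raji and 3 in REH, including PVT1 (-1.29), where 23.8% and 23.0% of all regions passed. The counts were 3 and 5 of 14 microRNA hosts, where MIR3667HG had the largest difference (-2.39), and 2 and 3 of 10 snoRNA hosts. None of 3 immune members passed for H3K4me2, and none was tested for H3K4me3 because none was called in every library.

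Among the regions of each line, the highest H3K4me3 levels of all members were those of the LINC01410 region in Raji (mean 9.50), ENSG00000289536 (7.17) and SDHAP1 (6.82). In REH TSPOAP1-AS1 led with 8.85, and in NALM6 it led with 3.88. H3K27me3 was found in 6 of 6 libraries at 7 members in Raji, 2 in NALM6 and 30 in REH, and together with H3K4me3 in 6 of 6 at 5, 0 and 9. The highest was ENSG00000289413, which lies between the homeobox genes DLX1 and DLX2, with H3K27me3 of 15.5, 19.5 and 42.9 in untreated and 16.8, 17.5 and 18.3 in treated REH and 2.79 to 3.98 in NALM6. ROCK1P1 had H3K27me3 at 6.82 to 17.5 and LGALS17A at 4.0 to 5.34 in REH. Of the 52 listed members, 38 had H3K27me3 in some Raji library, but 33 of these had it in untreated replicate 2 only.

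Bryostatin changed few member regions. For H3K4me2 no member region passed an adjusted p of 0.05 in limma, of 404 tested in REH, 399 in Raji and 94 in NALM6, where 1.45% of all regions passed in REH (1.42% higher and 0.0371% lower) and 0.0% in both other lines. At an unadjusted p under 0.05 the member counts were 32 in REH, 29 in Raji and 1 in NALM6. Over all regions they were 1066 of 10791, 626 of 9316 and 56 of 4128. For H3K4me3, REH had 8 of 227 member regions past the threshold (1.67% of all regions), Raji 1 of 363 (0.155%, each of them higher) and NALM6 none of 35 (0.0%). At an unadjusted p under 0.05, Raji had 27 (511 of 9040 over all regions) and NALM6 0 (7 of 3838). The 8 REH regions comprised 2 higher (0.815% of all regions) and 6 lower (0.857%). In NALM6 without replicate 1, none of 314 member regions passed for H3K4me2 and none of 95 for H3K4me3 (0.0% of all regions for both). Before adjustment 35 of the 314 were under 0.05, beside 1250 of 8891 over all regions. Fitted with the replicate block, H3K4me3 gave 7 in Raji (1.46% of all regions) and 15 in REH (2.79%) and H3K4me2 gave 2 in REH (2.83%). The REH H3K4me3 count of 8 fell to 1 without bryostatin replicate 2, 2 without bryostatin replicate 3 and 4 without untreated replicate 2. It rose to 13 without untreated replicate 1 and 15 without untreated replicate 3. These counts are not set beside all regions and show only the spread of the call.

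The median log2 change of members was close to that of all regions in each comparison except NALM6 H3K4me3. For H3K4me2 it was -0.04 in Raji, -0.02 in NALM6 and -0.04 in REH, beside -0.03, -0.02 and -0.02 over all regions. For H3K4me3 it was -0.02, -0.10 and -0.03, beside -0.01, -0.00 and -0.00, with 35 regions behind the NALM6 value. Without replicate 1 the NALM6 H3K4me3 median was -0.01 over 95 member regions, beside 0.02 over all regions, and without single libraries it ran from -0.28 to 0.12. Treated and untreated libraries were fully separated for H3K4me2 at 64 of 404 member regions in REH (14.7% of all regions), 38 of 397 in Raji (10.7%) and 13 of 94 in NALM6 (10.4%). Full separation for H3K4me3 was seen at 40 of 227 regions in REH (17.6%), 41 of 360 in Raji (12.4%) and 1 of 35 in NALM6 (5.11%). These Raji totals leave out sex-linked regions that are not reported here. The response of Raji against that of REH, tested as an interaction in limma, passed at 0 of 308 member regions for H3K4me2 (0.0275% of all, each of them lower) and 0 of 197 for H3K4me3 (0.0776%, or 0.062% higher and 0.0155% lower). At an unadjusted p under 0.05 the H3K4me2 interaction gave 17, beside 479 of 7267 over all regions. With the block the interaction passed at 2 for H3K4me3 (0.419% of all).

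**Figure D4:**
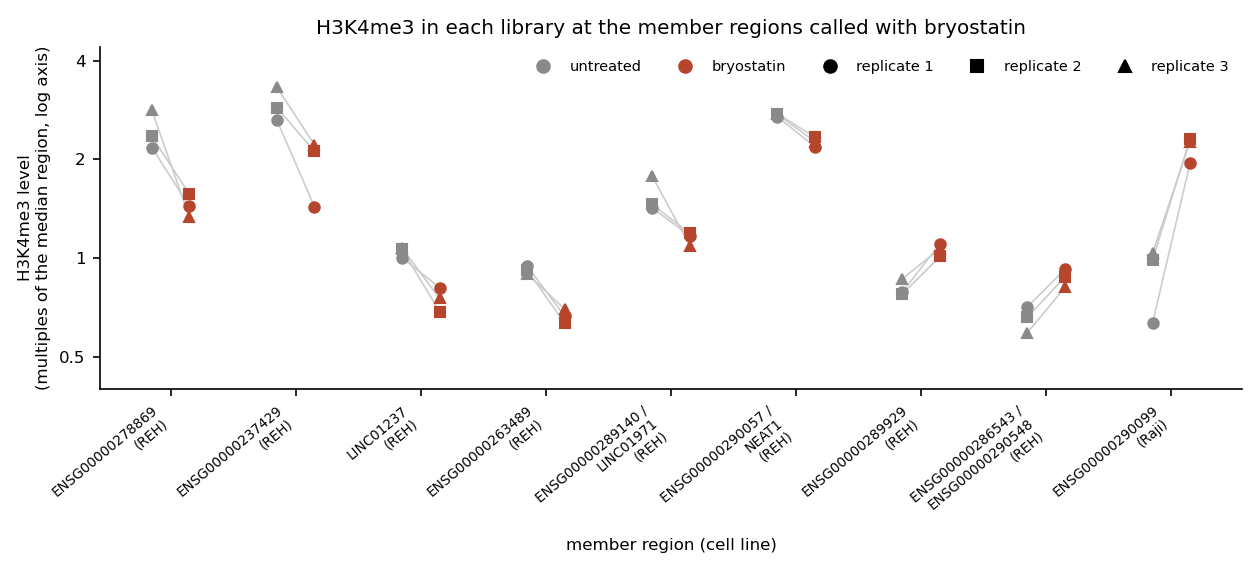
Points give the H3K4me3 level in each library (multiples of the median region, log y axis) at the 9 member regions that passed the adjusted p with bryostatin, 8 in REH and 1 in Raji (x axis), untreated in grey and treated in red, with lines joining equal replicate numbers. The groups do not overlap at any region shown, and only the Raji region and 2 REH regions rose.

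The region in Raji was that of ENSG00000290099 (chr7:142795271-142799610), between the T cell receptor segments TRBJ2-7 and TRBC2. Its H3K4me3 level was 0.635, 0.987 and 1.04 in untreated and 1.95, 2.31 and 2.27 in bryostatin-treated libraries, all treated values above all untreated ones. The log2 change was 1.32 (SE 0.18, adjusted p = 0.0279, limma). H3K4me2 of ENSG00000290099 was 2.31, 2.92 and 2.92 before and 3.21, 3.26 and 3.70 after. The call was lost in 7 of 14 alternatives, including those without untreated replicate 3 or without any of the 3 bryostatin replicates (adjusted p = 0.101 to 0.193, limma).

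The largest change in REH was at ENSG00000278869, where H3K4me3 was 2.17, 2.35 and 2.82 in untreated and 1.44, 1.57 and 1.33 in treated libraries (log2 -0.75, SE 0.09, adjusted p = 0.0014, limma). It passed in 13 of 14 alternatives. ENSG00000237429, between WASF2 and AHDC1, went from 2.63, 2.88 and 3.32 to 1.44, 2.12 and 2.21 (log2 -0.63, SE 0.14, adjusted p = 0.0431, limma). LINC01237 (chr2:241879921-241884390) went from 1.00, 1.06 and 1.07 to 0.815, 0.688 and 0.754 (log2 -0.48, SE 0.08, adjusted p = 0.00966, limma) and passed in 8 of 13 alternatives. All treated values lay below all untreated ones at these members. Their H3K4me3 was also higher in untreated REH than in untreated Raji at ENSG00000278869 (given above) and at LINC01237 (Raji 0.487, 0.498 and 0.475), but both comparisons use the same untreated REH libraries.

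NEAT1, in a region shared with ENSG00000290057 (chr11:65415921-65428140), went from 2.70, 2.76 and 2.75 to 2.19, 2.34 and 2.27 (log2 -0.27, SE 0.06, adjusted p = 0.0396, limma), the only listed member that passed with bryostatin. The call of NEAT1 was kept in 5 of 14 alternatives and the sign in all 14. In Raji the H3K4me3 change of NEAT1 was 0.09 (adjusted p = 0.964, limma). ENSG00000263489 (0.947, 0.920 and 0.897 to 0.667, 0.634 and 0.701) and LINC01971, in a region shared with ENSG00000289140 (1.42, 1.46 and 1.78 to 1.17, 1.19 and 1.09), also fell in REH.

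ENSG00000289929 on chromosome 3 rose in REH from 0.790, 0.778 and 0.867 to 1.11, 1.01 and 1.07 (log2 0.39, SE 0.07, adjusted p = 0.0222, limma). The other region that passed was that of ENSG00000286543 and ENSG00000290548 on chromosome 5, at 0.712, 0.661 and 0.594 before and 0.925, 0.878 and 0.815 after (log2 0.41, adjusted p = 0.0414, limma). Its mean signal per base turned to -0.20 while the called length went from 2487 to 3540 bp. None of the 8 REH regions passed by mean signal per base. Leaving out single libraries ended the call of LINC01237 without bryostatin replicate 2 or 3, of ENSG00000263489 without bryostatin replicate 2 and of LINC01971 without any bryostatin replicate. NEAT1 kept it only without untreated replicate 3, and ENSG00000237429, ENSG00000289929 and ENSG00000286543 lost it without any bryostatin replicate or without untreated replicate 2. Under the block BLACE and LINC03010 (log2 -0.47, adjusted p = 0.0562 without and 0.00271 with the block, limma), LINC00896 and LINC02891 (-0.40, 0.00290 with), ENSG00000228401 (-0.46, 0.0105 with) and TSPOAP1-AS1 (-0.41, 0.0111 with) also passed in REH.

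The immune members had higher values after bryostatin in Raji but did not pass. For H3K4me3 the median change over the 4 tested was 0.39 beside -0.01 for all regions, and for H3K4me2 it was 0.56 beside -0.03. MIR155HG changed by 0.45 for H3K4me3 (SE 0.27, adjusted p = 0.914, or 0.0226 with the block, limma), with treated above untreated in each of the 3 replicate numbers. For H3K4me2 MIR155HG was 2.01, 0.732 and 2.09 before and 2.90, 2.77 and 2.02 after (log2 0.80, adjusted p = 0.719, limma). All treated H3K4me2 libraries of Raji were deeper, at 15.6 to 18.8 M reads against 6.70 to 13.9 M, and the part of depth in these values was not tested.

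LUCAT1, a stress-induced lncRNA, was called in too few libraries to be tested. Its H3K4me3 in Raji was 0.0198 in untreated replicate 1 and absent from the others, and 0.394, 0.361 and 0.245 in the treated libraries. With H3K4me3 in 4 of 18 libraries, LUCAT1 met the member rule only through the treated Raji libraries. Its H3K4me3 is therefore described and not read as a change. Its H3K4me2 was 0.477 and 0.576 in 2 untreated libraries and 1.55, 1.59 and 1.49 in the treated ones. In REH LUCAT1 had H3K4me2 at 0.594 in 1 untreated library and at 0.921, 0.907 and 1.01 in the treated ones, and NALM6 had none. For H3K4me2 LUCAT1 was thus called in all 3 treated libraries of both lines and in 1 or 2 of the untreated ones. In Raji 169 of 831 members had this mark in more treated than untreated libraries and 7 in fewer, and in REH 28 and 79. Of 11801 coding promoters it was 1699 and 52 in Raji and 216 and 1078 in REH, the same directions. The REH H3K4me2 libraries had 18.2 to 22.8 M reads treated and 13.7 to 18.8 M untreated, and the part of depth was not tested.

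Other immune members and hosts gave smaller values. LINC01215 in Raji went from 0.344, 0.384 and 0.311 to 0.554, 0.456 and 0.420 for H3K4me3 (log2 0.46, adjusted p = 0.755, limma), without overlap. CYTOR changed by 0.42 (adjusted p = 0.808, limma), also without overlap. LINC00926 had the H3K4me2 change with one of the smallest p in Raji, from 0.866, 0.682 and 1.51 to 1.54, 1.78 and 1.56 (log2 0.75, SE 0.24, adjusted p = 0.601, limma). MIR23AHG in REH changed by 0.56 for H3K4me3 (SE 0.14, adjusted p = 0.0698, limma), with all treated values above the untreated ones.

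Where nothing passed, the smallest p belonged to the following members. In Raji H3K4me2 it was ENSG00000236833 with ENSG00000287286 (chr3:197663491-197666900), at 2.74, 3.05 and 2.87 before and 1.60, 1.64 and 2.23 after (log2 -0.68, adjusted p = 0.253, limma). In REH H3K4me2 LINC01678 went from 1.34, 1.54 and 1.66 to 2.05, 1.99 and 1.77 (log2 0.36, adjusted p = 0.124, limma). ENSG00000290729 changed by -0.41 there (adjusted p = 0.129, or 0.0332 with the block, limma). In NALM6 ENSG00000251161 went from 2.83, 2.65 and 3.08 to 1.70, 2.09 and 2.17 for H3K4me2 (log2 -0.53, adjusted p = 0.999, limma).

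Peaks gained or lost with treatment in all 3 libraries of a group were few. No member had a peak in 3 of 3 untreated and 0 of 3 treated libraries in any line or mark, beside 0.00847% of coding promoters for H3K4me3 in Raji and 0.0254% for H3K27me3 in REH. The reverse, a peak gained in 3 of 3 treated libraries from 0 of 3, was seen for H3K4me2 in NALM6 at 6 members, ENSG00000242553, ENSG00000260498, ENSG00000288612, ENSG00000289410, ENSG00000289855 and LINC01415, beside 0.72% of coding promoters. In REH it was GP6-AS1 for H3K4me2 (0.0254% of coding promoters) and ENSG00000262662 for H3K4me3 (0.0%). In Raji it was LINC01943 for H3K4me3 (0.0%) and no member for H3K4me2 (0.0339%). H3K27me3 gave none in any line. For H3K4me3, 3 treated libraries alone can meet the member rule, so the H3K4me3 gains are described only.

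The share of members with a peak overlapped between treated and untreated libraries for every line and mark when all 3 replicates were counted. In NALM6 they did not overlap without replicate 1 for H3K4me2 and H3K27me3. Its H3K4me2 shares were 17.1%, 50.9% and 58.1% in untreated and 19.4%, 66.9% and 66.1% in treated libraries, and its H3K27me3 shares 0.842%, 10.8% and 6.26% and then 0.361%, 13.2% and 24.2%, so replicates 2 and 3 alone were higher with treatment for both marks. With equal numbers of peaks the treated mean differed from the untreated one by 1.60 and -0.361 points. H3K4me2 in Raji was called at 81.3%, 61.4% and 78.6% of members in untreated and 86.4%, 85.3% and 72.3% in treated libraries. In REH it was 80.4%, 74.2% and 72.6% and then 81.7%, 73.6% and 64.9%. H3K4me3 in REH was 77.0%, 42.0% and 53.5% and then 40.4%, 67.0% and 49.7%, which shows the spread between libraries of a group. With 3 libraries against 3 an exact permutation test cannot go below 0.1, and none was run on the shares.

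The sequence around member starts was poorer in CpG than at coding promoters. Windows of 300 bases with the span given above were set at GENCODE starts, not at the RefSeq starts of the printed windows. The RefSeq start lay 646 bp from the member start for CYTOR, 352 bp for MIR130AHG and 335 bp for MIR155HG. Their printed windows are thus not the ones counted here. The median G and C content was 60.7% for members, 64% for coding promoters and 49.7% for all annotated gene starts. A ratio of observed to expected CpG over 0.6 was found at 59.9%, 82.1% and 29.9%. It rose with the number of H3K4me3 libraries, from 37.4% of members called in 3 to 5 libraries to 50.3% at 6 to 11, 77.8% at 12 to 17 and 92.3% of the 39 called in all 18. Coding promoters went from 60.9% through 71.0% and 84.5% to 86.9% over the same classes. The 52 Raji-restricted members had it at 25% and the 22 REH-restricted ones at 40.9%.

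Motifs were counted on both strands of the same windows. The AP-1 motif TGANTCA was found at 7.34% of members (61 of 831), 3.88% of coding promoters, 3.95% of near lncRNA promoters and 8.19% of all gene starts. It was in 8 of the 52 Raji-restricted windows and in 0 of the 22 REH-restricted ones. The GC box was found at 54.5% of members, 68.0% of coding promoters and 27.4% of all starts, and the ETS motif CCGGAAG at 11.4%, 18.7% and 6.05%. The TATA box was found at 8.06%, 5.87% and 17.1% and CCAAT at 35.1%, 36.8% and 36.5%. These are descriptions of letters in a window and carry no test.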

How the data were processed

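Reads were trimmed by the authors (TrimGalore) and mapped to the hg38 build by Bowtie2. The authors then computed coverage in RPKM and called peaks in each library with SEACR. The deposited tables give, for each peak, the total and the maximum signal, which is that coverage summed or at its highest over the peak. In 48 libraries the coverage follows 10 bp bins. In the 6 libraries of NALM6 replicate 1 the scaling is not given in the sources used here. Per the labels the repressive mark is H3K27me3, which the series text also writes as H3K27me2. The authors compared groups with DESeq2, and none of their comparisons was used. IgG libraries were not analysed here.

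Starts were taken from GENCODE 44. Of a member's starts over 5 kb from coding starts, the one with most H3K4me3 libraries was used. Peaks of the libraries compared were merged where they overlapped by at least 1 bp. The value of a region was the log2 of its summed total signal, centred on the library's median over regions called in every library, and only those regions were tested. Differences between groups were tested in limma 3.58.1 with a mean-dependent prior (the eBayes trend) under R 4.3.3 and adjusted by Benjamini-Hochberg over all regions at 0.05. Shares of promoters were compared by exact two-sided sign-flip tests over libraries. The limma step was tested on simulated data. Tables were handled with pandas 2.3.3 in Python 3.11.15. Of the members, 221 matched a RefSeq promoter by symbol, and the sequences are RefSeq's.

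The members and lists were chosen with earlier results of these data known. The genes named are listed members, the largest called or smallest p regions of each comparison, and the highest line-restricted, H3K4me3 and H3K27me3 members. Others are said to be chosen after their values were seen. Some cell type markers of the lists are not reported here.

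Replicate numbers recur across treatments. The deviations of same-numbered libraries from their group means correlated in every pair for H3K4me2 in NALM6 (0.40 to 0.45) and REH (0.13 to 0.21) and for H3K4me3 in Raji (0.48 to 0.54), NALM6 (0.63 to 0.68) and REH (0.18 to 0.31), so the numbers were taken as pairs there and a fit with the number as a block was added. For H3K4me2 in Raji they did not, and libraries of unlike numbers 2 and 3 correlated there at 0.48 and 0.41. In NALM6 libraries of unlike numbers 2 and 3 also correlated, at 0.41 and 0.35 for H3K4me2 and 0.51 and 0.57 for H3K4me3. The NALM6 correlations thus set replicate 1 apart and do not show that replicates 2 and 3 are pairs. The alternatives were another signal measure, normalization, filter or window, no eBayes trend, the block, and leaving out each library.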

Additional observations from a re-analysis of the deposited data

How the results depend on the processing

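Depth and peak calling limit these values, since a region without a peak in a library has no value. A line-restricted member was thus tested between lines only where its merged region was called in every library compared. Within its own line it was tested with bryostatin under the same condition, as ENSG00000290099 was in Raji. With no centring the median of all regions in Raji with bryostatin was 0.21 for H3K4me2 and 0.25 for H3K4me3, against -0.03 and -0.01 with it, so changes are relative to the median region. Of the values that answer a comparison, 245 stayed on their side of the threshold or within the spread over the alternatives, and the others follow, where the cause was not tested unless the alternative itself uses fewer regions or samples.

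The number of member regions called with bryostatin for H3K4me3 in REH, 8, became 2 by maximum signal, 0 by mean signal per base, 4 with no centring, 13 with regions called in at least 3 of 6 libraries, 4 among regions above the median signal and 1 to 15 without single libraries. These REH counts are not set beside all regions and show only the spread of the call. For H3K4me3 in Raji, 1 became 0 by maximum signal, by mean signal per base and without the eBayes trend. It became 2 with no centring, with quantile normalization and with regions called in at least 3 of 6 libraries. Without single libraries it was 0 to 1. Over all regions, 14 became 0 by maximum signal, by mean signal per base and without the trend. That total became 19 with no centring and 15 with quantile normalization and with regions called in at least 3 of 6 libraries. For H3K4me2 in REH, 0 became 1 with quantile normalization and with regions called in at least 3 of 6 libraries. Without single libraries it was 0 to 3. Over all regions, 157 of 10791 became 168 of 10791 and 316 of 14562 under these 2 settings. For H3K4me2 in Raji the member count was 0 to 1 without single libraries. The interaction for H3K4me3 gave 1 with quantile normalization.

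With the replicate block the counts were 15 for H3K4me3 in REH, 7 for H3K4me3 in Raji, 2 for H3K4me2 in REH and 2 for the interaction for H3K4me3, and the block moved no other count by over 1.5 times. It left 0 for H3K4me2 in Raji, where same-numbered libraries correlated at 0.42, -0.25 and -0.31. There untreated replicate 2 correlated with bryostatin replicate 3 at 0.48 and untreated replicate 3 with bryostatin replicate 2 at 0.41. A block by number may thus join unlike libraries there, and this 0 is no check of a pairing. Single members whose call the block changed and that are not named with it above include MIR762HG in Raji H3K4me3 (adjusted p = 0.0381 with the block, limma).

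Raji against REH gave 112 regions by mean signal and 114 among regions above the median signal for H3K4me2 (195 as reported, 146 to 226 without single libraries). For H3K4me3 it gave 78 by mean signal, 58 with no centring, 218 with regions called in at least 3 of 6 libraries and 59 above the median signal (139 as reported, 127 to 149 without single libraries). Over all regions the H3K4me2 counts were 2256 of 7999 by mean signal, 2254 of 4000 above the median signal and 3744 of 7999 as reported. The H3K4me3 alternatives are not set beside all regions.

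NALM6-restricted members went from 0 to 22 with 3 libraries. The share differences without single libraries ranged, for H3K4me2, from -9.62 to -8.28 in Raji, -21.5 to -19.6 in NALM6 and -13.6 to -13.5 in REH, and for H3K27me3 from -4.86 to 2.41 in Raji and 1.12 to 1.47 in REH, where 5 libraries allow no exact p under 0.0625. For Raji H3K27me3 the difference turned to 0.315 among promoters with H3K4me3 in all 6 libraries and 0.0227 with equal numbers of peaks, an alternative chosen after seeing the data. Equal peak numbers also lowered it from 2.67 to 0.312 in NALM6 and from 1.29 to 0.782 in REH. With same-numbered libraries averaged as a replicate block, also added after seeing the data, the differences of -8.97, -20.9 and -13.6 for H3K4me2 and 1.29 for REH H3K27me3 had an exact p of 0.25, the smallest possible. For REH H3K4me2 it turned to 1.30 and for NALM6 H3K4me2 it became -4.52 under the first of these and -17.9 without replicate 1.

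Of the named members, 651 values kept their direction and side of the threshold, 80 lost the call, 2 gained it and 8 changed sign. The sign changed by mean signal per base for LINC00926 (-0.14, Raji H3K4me2), PVT1 (-0.14, NALM6 H3K4me2), LINC02427 (-0.51, and -0.021 by maximum signal, REH H3K4me2), LINC02363 (0.13) and ENSG00000286543 with ENSG00000290548 (-0.20), and by maximum signal for SNHG7 (0.0525, NALM6 H3K4me3).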
